A study of Mus musculus with 4 samples.

Results

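Among neutrophils sorted from mouse mammary tumors, 112 cells carried at least 1% of their transcripts in the sum of 4 genes that low oxygen is known to induce, Hilpda, Vegfa, Ero1l and Plin2. They were 112 of the 947 tumor cells that had at least 200 detected genes and at most 15% of their UMIs in mitochondrially encoded genes, and of 2481 such cells in tumor and blood together. A UMI (unique molecular identifier) tags 1 captured transcript, so a count of UMIs is a count of transcripts. The cells are called hypoxia-high here. They were compared with 647 hypoxia-low tumor cells that held under 0.5% in the same sum, and a middle class of 188 cells lay between the limits.

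The untreated FVB mice (an inbred strain) bore tumors of about 1 cm, collected 2 to 3 weeks after injection of Py7160, a line of mouse mammary carcinoma cells. Tumor and blood of the same 3 mice were enriched for Ly-6G, stained with 1 hashtag antibody per animal, pooled by tissue and sorted for CD11b and Ly6G. Drop-seq, in which a cell and a barcoded bead share a droplet, gave 1 RNA library and 1 hashtag library per tissue. The labels name no other genotype and no treated group, and all 3 mice carried the same tumor line.

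Cells short of oxygen stabilise the hypoxia-inducible factors, transcription factors that bind DNA at a short core motif and switch on genes for glycolysis, blood vessel growth, lipid storage and mitochondrial turnover. Hilpda encodes an inhibitor of lipid breakdown on lipid droplets, and Plin2 a droplet coat protein. Vegfa is the main growth factor for blood vessels, and Ero1l the oxidase that drives disulfide bond formation in the endoplasmic reticulum. Neutrophils rely largely on glycolysis and reach poorly perfused regions of tumors.

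The rule chose the cells from these 4 genes, so their levels are a description and carry no test. The sum took a median of 1.42% of the UMIs of a hypoxia-high cell, with a range of 1.00% to 2.83%. That was 3 to 23 transcripts, with a median of 8.5, against a median of 0.243% over all tumor cells. Hilpda supplied 59.7% of the selecting UMIs in these cells, Plin2 19.7%, Ero1l 17.0% and Vegfa 3.6%. At least 1 Hilpda UMI was found in 108 of the cells, an Ero1l UMI in 75, a Plin2 UMI in 75 and a Vegfa UMI in 22. Hilpda alone reached 1% in 44 cells, Plin2 alone in 5, Ero1l alone in 3 and Vegfa alone in 0. The class was therefore defined mainly by Hilpda and only slightly by Vegfa.

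All 4 genes were detected in 12 of the cells, 3 of them in 44, 2 in 44 and 1 in 12. Hilpda made up 0.866%, 0.891% and 0.858% of UMIs in the hypoxia-high cells of mice 1, 2 and 3, and 0.0482%, 0.0660% and 0.0669% in their hypoxia-low cells. The hypoxia-high cells held 10.0% of the UMIs of all tumor cells but 46.0% of the Hilpda UMIs, 38.1% of those of Ero1l, 34.1% of those of Plin2 and 18.2% of those of Vegfa. In barcodes with 20 to 60 UMIs, which hold mostly free RNA, the 4 genes made up 0.165% of UMIs, close to the 0.145% of the hypoxia-low cells.

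The class is a range cut from a score and no separate cell type. The 3 cells just inside the limit held 1.0017%, 1.0020% and 1.0101%, and the 3 just outside 0.9972%, 0.9967% and 0.9960%. Between 0.9% and 1.1% lay 35 cells, 17 of them members, and 16 members reached 2%. The plot of the selecting share shows 1 long tail in tumor with no gap at either limit. The variance of the share over tumor cells was 4.13 times that of counting noise, and that of Hilpda by itself 3.98 times.

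**Figure D1:**
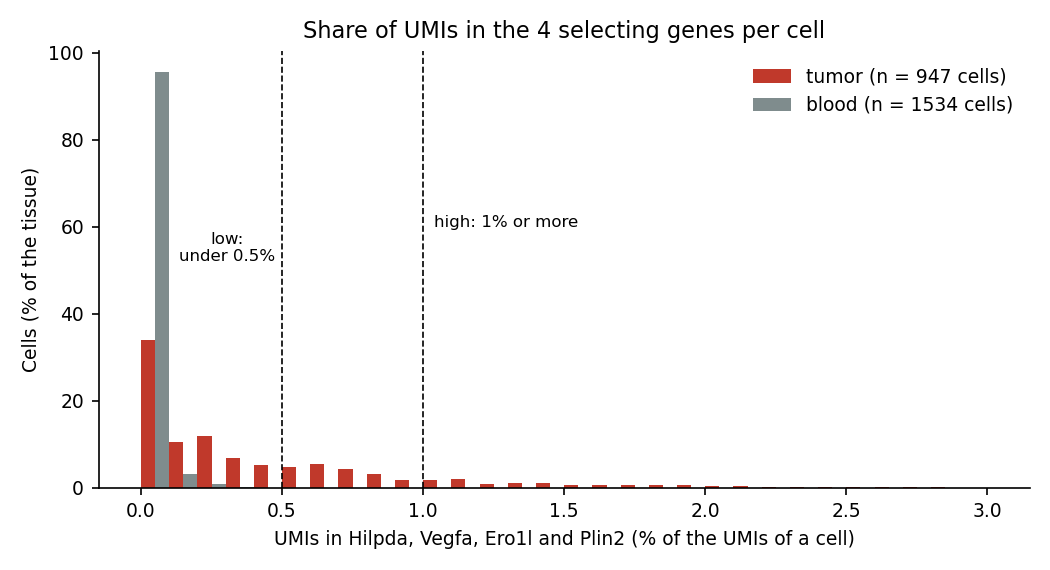
Histogram of the share of a cell's UMIs in Hilpda, Vegfa, Ero1l and Plin2 in bins of 0.1 percentage points. The horizontal axis is the share in percent, the vertical axis the percent of the cells of the tissue, red bars are the 947 tumor cells, grey bars the 1534 blood cells and dashed lines the limits of 0.5% and 1%. Tumor cells tail off past 2% without a gap, and no blood cell reaches 0.5%.

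Every mouse supplied hypoxia-high cells. The hashtags gave 20 of 134 tumor cells (14.9%, exact binomial interval 9.36% to 22.1%) in mouse 1, 25 of 243 (10.3%, 6.77% to 14.8%) in mouse 2 and 28 of 213 (13.1%, 8.92% to 18.4%) in mouse 3, a mean of 12.8% ± 2.34 (SD, n = 3 mice). The 3 intervals overlap, and they cover counting error at the 95% level only. Of the 1534 blood cells, 0 met the rule, which allows a share of up to 0.196%. The highest blood cell held 0.362%. Tumor cells at or above the median UMI total met the rule in 11.4% of cases (54 of 474) and those below it in 12.3% (58 of 473).

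The hypoxia-high cells had a median of 559 UMIs and 292.5 genes, the hypoxia-low cells 582 UMIs and 293 genes, and mitochondrially encoded genes took a median of 3.29% and 2.99% of UMIs. The libraries are shallow, with 1315437 UMIs in the tumor file and 1969947 in the blood file. The tumor and blood files shared 20 of 10000 barcodes, and 0 of those with at least 200 genes. Only the commoner transcripts could be compared: 321 genes, with 63.1% of UMIs, passed the low-count filter.

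The hypoxia-high cells carried neutrophil markers at a lower level than the other tumor cells. In the sums used for the test, 9 of 12 neutrophil markers were detected, and Ly6g, Mmp8 and Mmp9 were at 0. Over all 112 cells 11 of 12 were detected, and Ly6g, the gene of the protein used for sorting, was at 0. The summed list reached 32569, 37279 and 26683 CPM (counts per 1000000 UMIs) in the hypoxia-high cells of mice 1, 2 and 3. It reached 137761, 99184 and 57091 CPM in the matched hypoxia-low cells, 44087 ± 7576 CPM in the middle class and 195008 ± 16267 CPM in blood (SD, n = 3 mice). The hypoxia-high range lay wholly under the hypoxia-low range, and mouse 1 had the highest hypoxia-low value. The free-RNA barcodes held 22514 CPM of the same list.

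Markers of other cell types were scarce. In the matched sums the lists of mammary tumor epithelium (7 genes), fibroblasts (3 genes), T or NK cells (5 genes), B cells (5 genes), erythroid cells (5 genes), platelets (3 genes) and basophils (1 gene) were at 0 in hypoxia-high cells. Monocyte or macrophage markers gave 13 UMIs in hypoxia-high and 12 in hypoxia-low sums, with 7 and 4 of 12 genes detected, and a range over mice of 120 to 860 and 120 to 578 CPM. Major histocompatibility class II or dendritic markers gave 8 and 11 UMIs, with 3 of 5 genes detected in both, and 124 to 287 and 124 to 482 CPM. The macrophage gene Adgre1 and the dendritic gene Cd209a were at 0 in both sums. Endothelial markers gave 2 UMIs, both of Pecam1, and 0. Outside the matched sums the classes differed: at least 2 UMIs of other types were found in 5 of 112 hypoxia-high cells (4.46%) and in 97 of 647 hypoxia-low cells (15%). Over all 112 and 647 cells monocyte or macrophage markers stood at 263 and 2632 CPM. Class II or dendritic markers stood at 247 and 3275 CPM.

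Whether the 4 selecting genes move together was tested by choosing cells with 3 of them and reading the fourth, which then had no part in the choice. UMIs were summed over depth-matched cells of each mouse and class, and fitted with edgeR's quasi-likelihood test over all genes with the mouse as a block. Two-sided p-values were adjusted by the Benjamini-Hochberg method. Ero1l and Hilpda rose in cells chosen by the other genes, Plin2 did not pass the test, and Vegfa showed no difference that these counts could resolve.

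Ero1l stood at 1682, 1809 and 1760 CPM in the high cells of mice 1, 2 and 3, and at 226, 452 and 672 CPM in the low cells. Each mouse was higher in the high cells, with no overlap, and the log2 fold change was 1.76 ± 0.48 (SE, n = 3 mice, adjusted p = 0.00339). Hilpda stood at 5587, 3390 and 4276 CPM against 2578, 1067 and 1955 CPM. These did not overlap either, with a log2 fold change of 1.17 ± 0.28 (adjusted p = 0.0179). Plin2 stood at 1976, 1449 and 2345 CPM against 1146, 591 and 459 CPM. Its values did not overlap between classes, but the log2 fold change of 1.36 ± 0.40 missed the threshold (adjusted p = 0.0692). It passed with every cell in place of depth-matched ones, at 1.1 (adjusted p = 0.00984).

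Vegfa was counted in 18 UMIs in the high and 17 in the low cells, and fell under the low-count filter. It stood at 191, 474 and 425 CPM against 385, 422 and 305 CPM, which overlap. The log2 fold change without the filter was -0.05 ± 0.69 (adjusted p = 0.999), an error wide enough to hold a change in either direction. Leaving out mouse 1 ended the calls for Hilpda (1.25, adjusted p = 0.246) and Ero1l (1.58, adjusted p = 0.0635), and leaving out mouse 2 ended that for Hilpda (0.97, adjusted p = 0.187). DESeq2 gave Ero1l 1.83 (adjusted p = 0.0725). The plot of each left-out gene shows the values by mouse.

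**Figure D2:**
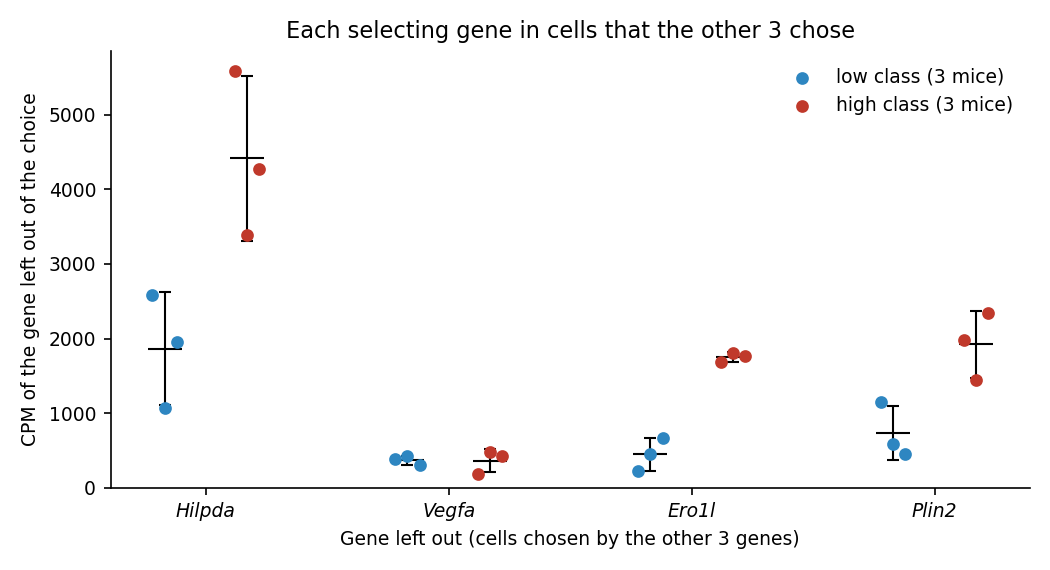
Level of each selecting gene in cells chosen by the other 3. The vertical axis is CPM, the horizontal axis the gene left out of the choice, points are the 3 mice, and bars are the mean ± SD. Red high cells lie above blue low cells in all mice for Hilpda, Ero1l and Plin2, and the points overlap for Vegfa.

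All further genes were compared between hypoxia-high and hypoxia-low cells with the 4 selecting genes removed from counts and library sizes. Each hypoxia-high cell with a mouse was paired with the hypoxia-low cell of that mouse nearest in UMI total, which gave 20, 25 and 28 cells per class and sums of 10381 to 16954 UMIs. At an adjusted p under 0.05, 10 genes were higher in hypoxia-high cells (3.12% of the 321 tested) and 30 were lower (9.35%). All 40 moved the same way in all 3 mice, and in 37 the values of the classes did not overlap. Over all 321 genes 113 did not overlap (35.2%), 100 had an unadjusted p under 0.05, and the median log2 fold change was 0.03.

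The number of calls depended on mouse 1 most. Without mouse 1 edgeR called 0 genes in either direction (54 at an unadjusted p under 0.05). The 36 called genes that could still be tested kept their direction. All 40 had moved the same way in each mouse, so the kept direction adds no support. Without mouse 2 edgeR called 4 higher and 16 lower, with 20 of the 31 called genes still tested among them. Without mouse 3 it called 24 and 33, with 31 of 37 among them. DESeq2 called 1 higher and 13 lower. Upper-quartile scaling moved the share of calls that were higher from 25% to 42.2%, with 19 higher and 26 lower and a shift of 0.12 in the median log2 fold change.

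With every hypoxia-high and hypoxia-low cell of the 3 mice, unmatched, 739 genes could be tested, of which 45 were higher (6.09%) and 112 lower (15.2%). Of the 40 genes called in matched cells, 39 were called again. The full hypoxia-low class holds more macrophage and class II markers than the hypoxia-high class, with the values given above. Cells with such markers were left out only in a matched fit, so their part in the calls with every cell was not tested. A gene that passes the low-count filter only through the class where it is high has to differ, so counts and medians over the tested members of a list describe those members and not the whole list. This holds both in matched cells and with every cell.

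Among other targets of the hypoxia-inducible factors, 2 of the 6 tested rose in the hypoxia-high cells, against 3.12% of all tested genes. Of 34 listed targets beyond the selecting genes, 32 are in the tumor file and 6 had enough counts to test. P4ha1 and Bnip3 rose, none fell, and the median log2 fold change was 1.60 against 0.03 over all tested genes. P4ha1, Bnip3 and Bnip3l had only 6, 13 and 9 UMIs in hypoxia-low cells and so passed the filter through the hypoxia-high cells. Without the filter the median was 1.07 over 28 targets, against -0.08 over 6520 genes.

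P4ha1, a prolyl hydroxylase that modifies collagen, stood at 1624, 779 and 618 CPM in the hypoxia-high cells of mice 1, 2 and 3 and at 96.4, 120 and 186 CPM in their hypoxia-low cells. Every hypoxia-high value lay above every hypoxia-low value, and the log2 fold change was 2.50 ± 0.69 (SE, adjusted p = 0.0343). Bnip3, a receptor for the removal of mitochondria by autophagy, stood at 1146, 1079 and 1359 CPM against 96.4, 60 and 683 CPM. Its hypoxia-low cells were highest in mouse 3, the classes did not overlap, and the log2 fold change was 2.06 ± 0.60 (adjusted p = 0.0442). The P4ha1 difference rests on 40 against 6 UMIs and the Bnip3 difference on 52 against 13.

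The other 4 tested targets did not pass. Bnip3l, the close relative of Bnip3, had a log2 fold change of 1.79 (adjusted p = 0.142). Ldha, lactate dehydrogenase A, had 1.41 (adjusted p = 0.083), the cytokine Mif 0.84 (adjusted p = 0.226) and the transcription factor Bhlhe40 -0.04 (adjusted p = 0.978). With every cell of both classes 13 targets could be tested and 7 rose, against 6.09% of all genes tested there, with a median of 1.25. They were Bnip3 (2.52), P4ha1 (1.75), Bnip3l (1.48), Ldha (1.02), Mif (1.25), Fam162a, a mitochondrial protein (1.67), and Higd1a, a respiratory chain factor (2.46). Fam162a and Higd1a had only 66 and 21 UMIs over all 647 hypoxia-low cells, and passed the filter mainly through the hypoxia-high cells. The count and the median therefore describe the tested targets and not the whole list. The summed list took 1.08% ± 0.021 of UMIs in hypoxia-high cells, 0.463% ± 0.094 in hypoxia-low cells, 0.847% ± 0.212 in the middle class and 0.161% ± 0.013 in blood (SD, n = 3 mice). By mouse the median of the 6 matched genes was 2.77, 2.16 and 0.84, lowest in mouse 3, and without mouse 3 the fit gave 2.79 over 4 genes.

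The hypoxia-inducible factor genes themselves were too sparse to test. Hif1a gave 14 UMIs in hypoxia-high and 12 in hypoxia-low sums, and with every cell its log2 fold change was -0.39 (adjusted p = 0.642). Of 10 listed factor and regulator genes, 0 of the 9 in the file passed the filter. Their sum took 0.0955%, 0.0839% and 0.0988% of UMIs in the hypoxia-high cells of mice 1, 2 and 3. In hypoxia-low cells it took 0.0482%, 0.0540% and 0.0435%. The regulator gene Egln3 gave 17 and 3 of these UMIs, and with every cell its log2 fold change was 1.53 (adjusted p = 0.0504). The glucose transporter Slc2a1 gave 12 and 6 UMIs and the hexokinase Hk2 13 and 8.

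Promoters of the selecting genes and of the target genes that rose were searched for the core motif of the hypoxia-inducible factors. The windows ran from 250 bases before to 50 bases after each RefSeq start site (GRCm38.p6), and the searched letters were ACGTG and GCGTG with their reverse complements CACGT and CACGC. The site nearest to a start is printed for the 4 selecting genes and for 3 genes that rose, on the strand of the gene, with the motif in capitals. They are shown for their letters only. The change of the 4 selecting genes was set by the rule, and the other 3 were taken from risen genes that hold a match.
Hilpda: ggttcggtacGCGTGcgcagtctcc
Vegfa: agtgcgtgccCACGTcagagagcaa
Ero1l: cgcgccgctgCACGTccgcagggga
Plin2: ctgggctatcACGTGgctcggaggc
P4ha1: tgacagagcgCACGTagcgagggct
Bnip3: ctccgccgccGCGTGcgtcccgccc
Aldoa: tggctcgagtCACGTcctagcgggg

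In order, these lie at chr6:29272608-29272632 (plus strand), chr17:46025360-46025384 (minus), chr14:45318621-45318645 (minus, under the RefSeq symbol Ero1a), chr4:86670048-86670072 (minus), chr10:59323270-59323294 (plus), chr7:138909527-138909551 (minus) and chr7:126799366-126799390 (minus). The motif of Plin2 starts 3 bases before a start site, and those of the others start 8 (Hilpda), 16 (P4ha1), 35 (Bnip3), 63 (Ero1l), 202 (Aldoa) and 211 (Vegfa) bases before. For Vegfa and Aldoa that start site is an internal one. Their printed sites lie well inside the genes, which span chr17:46016993-46032377 and chr7:126795234-126800994. A motif was found in 1 of 2 windows of Vegfa and 2 of 3 of Aldoa. The sites of Hilpda, Plin2 and P4ha1 also lie inside the gene span, nearer to its outer end. Such a motif is common: at least 1 was found for 46.7% of all genes in the RefSeq table and for 180 of the 262 tested genes with a window (68.7%). It was found for 5 of the 8 genes with a window that rose and for 11 of the 23 that fell (47.8%). Tpi1, Id2 and Rbm25 rose without it in this window, and Bsg and Rgs1 had no window in the table. A match is a description of letters and no evidence of binding.

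Among glycolytic enzymes 2 of the 4 tested rose, against 3.12% of all tested genes. Of 21 listed genes 4 could be tested: Tpi1 and Aldoa rose, Ldha and Pkm (0.81, adjusted p = 0.142) did not pass, and the median was 1.28. Tpi1 had 67 UMIs in hypoxia-high and 11 in hypoxia-low cells and so passed the filter through the hypoxia-high cells. The median therefore describes these 4 genes and not the whole list. Tpi1, triose phosphate isomerase, stood at 1337, 2098 and 1112 CPM in mice 1, 2 and 3 against 386, 180 and 248 CPM. The classes were far apart in every mouse, and the log2 fold change was 2.35 ± 0.50 (adjusted p = 0.0118). Aldoa, the aldolase that feeds it, stood at 2674, 1438 and 1729 CPM against 1060, 660 and 621 CPM, again without overlap (1.15 ± 0.34, adjusted p = 0.0471).

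The summed glycolysis list took 0.936%, 1.01% and 0.908% of UMIs in the hypoxia-high cells of the 3 mice, and 0.415%, 0.396% and 0.528% in hypoxia-low cells. The middle class held 0.714% ± 0.096 and blood 0.260% ± 0.020. Over single cells the median was 0.933% in the hypoxia-high class, 0.652% in the middle class and 0.331% in the hypoxia-low class. Bsg, which escorts lactate transporters to the cell surface, rose from 96.4, 180 and 559 CPM to 1051, 1678 and 1297 CPM (2.12 ± 0.53, adjusted p = 0.0250). At these levels Bsg too passed the filter through the hypoxia-high cells.

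Bsg and the other 5 of the 10 higher genes belong to neither the hypoxia target nor the glycolysis list. Id2, an inhibitor of basic helix-loop-helix transcription factors, was the most abundant of them. It stood at 3820, 3596 and 3521 CPM against 482, 1499 and 1056 CPM, a narrow hypoxia-high range wholly above the hypoxia-low values (1.67 ± 0.35, adjusted p = 0.0114). Cxcl3, a neutrophil-attracting chemokine, stood at 955, 300 and 1668 CPM against 96.4, 0 and 249 CPM. Its log2 fold change was the highest of the 10, at 2.93 ± 0.74 (adjusted p = 0.0250), and rests on 42 against 5 UMIs. Cxcl3 thus passed the low-count filter through the hypoxia-high cells and had to differ, which also bears on its rank. With every cell it was 1.51 (adjusted p = 0.00867), and DESeq2 did not call it (adjusted p = 0.130).

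Card19, a protein with a caspase recruitment domain, stood at 2579, 2277 and 2162 CPM against 868, 959 and 808 CPM, with little spread in either class (1.25 ± 0.32, adjusted p = 0.0256). Rgs1, which dampens signalling of G-protein-coupled receptors, rose by a log2 fold change of 1.56 ± 0.43 (adjusted p = 0.0343). Rbm25, an RNA-binding splicing factor, rose by 1.72 ± 0.45 (adjusted p = 0.0273). Rbm25 was at 1694 ± 229 CPM in hypoxia-high cells and at 2134 CPM in free RNA, so its hypoxia-high level did not exceed that of free RNA. For the other 9 genes the hypoxia-high level was above that of free RNA, for example 1195 ± 146 against 146 CPM for Bnip3 and 1516 ± 517 against 265 CPM for Tpi1. For all 10 genes the middle class lay between the other two.

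**Figure D3:**
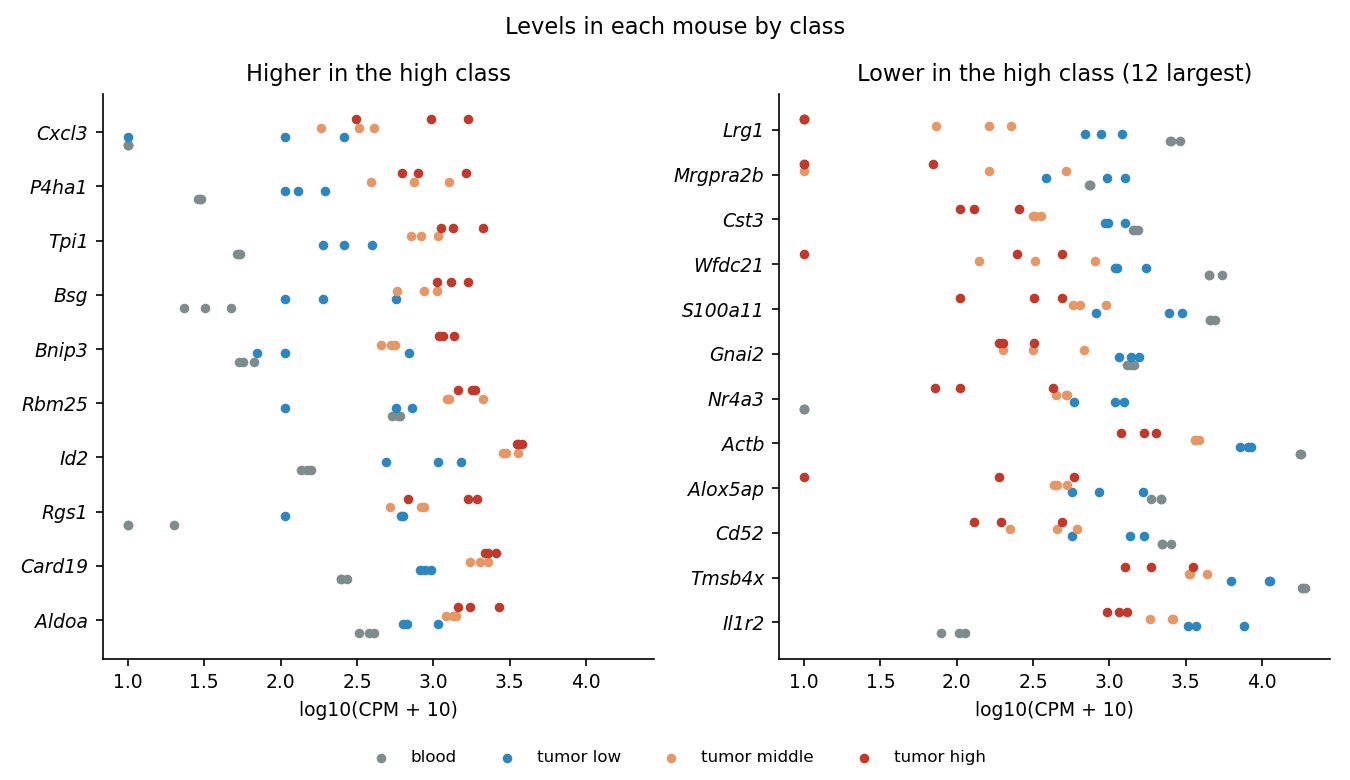
Levels of the 10 genes higher and the 12 lower genes with the most negative fold change among those called (adjusted p under 0.05) in hypoxia-high cells. The horizontal axis is log10(CPM + 10), so 1.0 stands for 0 CPM, each row is a gene, points are the 3 mice, and colors mark hypoxia-high, middle and hypoxia-low tumor cells and blood. The middle class lies between the hypoxia-high and hypoxia-low means for all genes shown, and the blood points lie to the right of the hypoxia-high points for 10 of the 12 genes that were lower, all but Nr4a3 and Il1r2.

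Of the tested genes listed for circulating mature neutrophils, 10 of 16 were lower in hypoxia-high cells, against 9.35% of all tested genes. Of 28 listed genes 16 could be tested, 10 fell and none rose, with a median log2 fold change of -1.54. Cxcr2, Ifitm2, S100a6 and S100a11 had 16, 21, 19 and 14 UMIs in hypoxia-high cells and passed the filter through the hypoxia-low cells. The summed list took 4.0%, 4.36% and 3.00% of UMIs in the hypoxia-high cells of mice 1, 2 and 3 and 15.7%, 11.4% and 6.86% in hypoxia-low cells. It took 5.08% ± 0.73 in the middle class and 23.7% ± 1.44 in blood. The hypoxia-low cells therefore lay nearer to blood on this list, and mouse 1 nearest.

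S100a9, a subunit of the calcium-binding complex calprotectin, stood at 12798, 12886 and 6733 CPM against 66326, 42216 and 24414 CPM. Every hypoxia-high value was under every hypoxia-low value, and the log2 fold change was -2.13 ± 0.21 (adjusted p = 9.2e-05). S100a8, its partner, stood at 12703, 16362 and 11550 CPM against 47142, 36879 and 20749 CPM (-1.45 ± 0.23, adjusted p = 0.0029). Free RNA held 9295 CPM of S100a9 and 7262 CPM of S100a8, near the hypoxia-high levels for the first. Both genes together took a median of 1.20% of UMIs in single hypoxia-high cells and 3.88% in hypoxia-low cells, and 16 of the 112 held none.

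Cxcr2, the receptor through which neutrophils follow CXC chemokines, fell from 1735, 1259 and 932 CPM to 191, 539 and 309 CPM (-1.94 ± 0.49, adjusted p = 0.0250). Il1r2, the decoy receptor for interleukin 1, fell from 3278, 7556 and 3665 CPM to 1146, 959 and 1297 CPM (-2.18 ± 0.36, adjusted p = 0.0032). In blood Il1r2 was at only 89.0 ± 18 CPM, against 6155 CPM for Cxcr2. Though on the list, Il1r2 was thus lower in blood than in either tumor class, and its fall is no move away from blood. S100a11 (-2.71), S100a6 (-1.63), Wfdc17 (-1.63) and the interferon-induced membrane protein genes Ifitm1 (-1.43) and Ifitm2 (-1.83) fell as well.

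Retnlg, a secreted protein that marks mature blood neutrophils, needs care. It stood at 1146, 779 and 556 CPM in hypoxia-high cells and at 12725, 1679 and 932 CPM in hypoxia-low cells, so the classes overlap across mice and mouse 1 holds most of the difference. The log2 fold change was -2.16 ± 0.51 (adjusted p = 0.0191). Without mouse 1 it was -1.06 (adjusted p = 0.230), and without cells holding at least 2 UMIs of other cell types -0.61 (adjusted p = 0.387). Its level in free RNA was 897 CPM. With cells that hold a Retnlg UMI left out of both classes, a check added after the data were seen, edgeR called 0 genes higher and 5 lower of 208 tested (39 at an unadjusted p under 0.05), and the 32 called genes still tested kept their direction.

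Among granule protein genes 2 of the 6 tested fell, against 9.35% of all tested genes. Of 20 secondary and tertiary granule genes 6 could be tested, Retnlg and Wfdc21 (-2.76 ± 0.62, adjusted p = 0.0158) fell, and the median was -2.46. Anxa1 (-3.63, adjusted p = 0.054), Hp (-2.81, adjusted p = 0.065), Lyz2 (-2.14, adjusted p = 0.054) and Lcn2 (-0.23, adjusted p = 0.799) did not pass. Anxa1, Hp, Lyz2 and Wfdc21 had only 2, 7, 10 and 9 UMIs in hypoxia-high cells. They passed the filter through the hypoxia-low cells, so the median describes the tested genes and not the whole list. With every cell 8 of 12 fell, against 15.2% of all genes tested there. The list took 0.304% ± 0.093 of UMIs in hypoxia-high cells and 1.18% ± 0.974 in hypoxia-low cells, where mouse 1 alone held 2.29%.

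Lrg1, a glycoprotein stored in neutrophil granules, gave 0 UMIs in hypoxia-high and 40 in hypoxia-low sums, with 868, 1199 and 683 CPM in mice 1, 2 and 3. Against a floor of 3 counts over the group it was at least 13.4-fold lower. Mrgpra2b, a neutrophil G-protein-coupled receptor, gave 1 against 35 UMIs. That is a ratio of 35.2 with a counting interval of 5.91 to 1428, and reads of its near-identical copy Mrgpra2a may be shared between the genes. Both Lrg1 and Mrgpra2b passed the low-count filter through the hypoxia-low cells only. They therefore had to differ, and their large ratios are tied to that choice.

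Actb, beta-actin, stood at 2006, 1678 and 1174 CPM against 8387, 8036 and 7144 CPM. The classes were separated in all mice with little spread, and the log2 fold change was -2.45 ± 0.29 (adjusted p = 0.000334). Tmsb4x, which binds actin monomers, stood at 3534, 1259 and 1853 CPM against 11086, 11274 and 6274 CPM (-2.32 ± 0.33, adjusted p = 0.0016). Free RNA held 3094 CPM of Actb, above the hypoxia-high level, and 2257 CPM of Tmsb4x. Arpc1b, a subunit of the complex that branches actin (-1.73), and Lcp1, which bundles it (-1.75), also fell. These 4 genes were put together after their values were seen and stand for no list.

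Gnai2, Cst3, Alox5ap and Cd52 were also among the 12 most negative of the called genes. Gnai2, an inhibitory G-protein subunit used by chemokine receptors, stood at 191, 180 and 309 CPM against 1543, 1139 and 1367 CPM (-2.64 ± 0.47, adjusted p = 0.0059). At these levels Gnai2 too passed the low-count filter through the hypoxia-low cells. Cst3, the secreted protease inhibitor cystatin C (-2.81), Alox5ap, needed for leukotriene synthesis (-2.40), and the surface glycoprotein gene Cd52 (-2.38) were lower too. Hdc, which makes histamine, fell by 2.03 on the log2 scale, and Ptprc, the pan-leukocyte phosphatase CD45, by 1.49. Alox5ap and Ptprc overlapped between the classes across mice. Lmnb1, a nuclear lamina protein, and Mxd1, a partner of Max, had log2 fold changes of -1.27 and -1.02.

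Of 33 listed chemokine, cytokine and NF-kB target genes 19 could be tested in matched cells, Cxcl3 rose, Il1b fell, and the median was -0.17. Over all genes tested in matched cells 3.12% were higher and 9.35% lower. With every cell 26 could be tested, 3 rose and 7 fell, with a median of -0.33 against -0.05 over all 739 genes. Of those 739 genes 6.09% were higher and 15.2% lower. Cxcl3 (1.51), Il1a, the gene of interleukin 1 alpha (1.87), and Il1rn, the gene of the interleukin 1 antagonist (0.56), rose with every cell. Il1b (-1.69), Il23a, a cytokine subunit (-1.79), Rel, an NF-kB subunit (-1.56), Tnfaip2 (-1.13), Nfkbiz (-0.81), the endotoxin co-receptor gene Cd14 (-0.71) and Ccl4 (-0.60) fell. Il1b, the gene of interleukin 1 beta, stood at 4489, 4255 and 4941 CPM in the hypoxia-high cells of mice 1, 2 and 3 against 15425, 11214 and 10934 CPM. The classes were far apart (-1.58 ± 0.25, adjusted p = 0.0029), while free RNA held 5367 CPM.

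Cxcl2, the most abundant chemokine of these cells, stood at 41643, 34582 and 43051 CPM against 19088, 14092 and 56097 CPM. The hypoxia-low value of mouse 3 exceeded every hypoxia-high value, so the difference did not pass (0.53 ± 0.28, adjusted p = 0.224). Ccl3 had the same shape, with 8596, 8870 and 11612 CPM against 2892, 3778 and 11803 CPM (0.72 ± 0.31, adjusted p = 0.142). Ccl4 gave -0.17 (adjusted p = 0.785), Ptgs2, a prostaglandin synthase, -0.82 (adjusted p = 0.268), and the transcription factor gene Cebpb -0.28. None of these 5 genes passed in matched cells, while Ccl4 fell with every cell (-0.60, adjusted p = 0.0243).

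Of 23 immediate early genes 14 could be tested, and 2 fell, Nr4a3, an orphan nuclear receptor (-2.48 ± 0.65, adjusted p = 0.0278), and Zfp36, which destabilises cytokine transcripts (-1.84 ± 0.44, adjusted p = 0.0211). The share that fell is to be read against the 9.35% of all tested genes, and the median was -0.45. Nr4a3 and Zfp36 had only 9 and 21 UMIs in hypoxia-high cells and passed the filter through the hypoxia-low cells. The count and the median therefore describe the tested genes and not the whole list. With every cell 4 of 15 fell (Junb, Nr4a1, Nr4a3 and Zfp36), against 15.2% of all genes tested there. Nfkbid, an atypical NF-kB inhibitor, fell by 1.53 on the log2 scale.

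Acod1, whose enzyme makes itaconate in activated myeloid cells, did not differ detectably. It stood at 3247, 2457 and 3274 CPM in the hypoxia-high cells of mice 1, 2 and 3 and at 1542, 3538 and 4100 CPM in their hypoxia-low cells. The ranges overlap and the mice disagree in direction (-0.17 ± 0.33, adjusted p = 0.778). In blood it was at 10.3 ± 4.67 CPM. Its sign changed without mouse 2 (0.12) and without mouse 3 (0.10).

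Of 24 genes of the Nrf2, iron and ferroptosis defence list 6 could be tested and none passed, with a median of 0.41. The ferritin chains came nearest. Fth1, the heavy chain, stood at 60554, 51184 and 63064 CPM against 37501, 35920 and 43424 CPM. These values do not overlap, as for 35.2% of all tested genes, and the difference missed the threshold (0.43 ± 0.15, adjusted p = 0.071). Ftl1, the light chain, had 0.74 ± 0.23 (adjusted p = 0.054), and passed with every cell (0.56, adjusted p = 0.0095). With every cell Gsr, glutathione reductase, fell (-2.60, adjusted p = 0.00192), and the median over 12 tested genes of the list was -0.01. Both chains together took a median of 8.20% of UMIs in single hypoxia-high cells, 6.77% in the middle class and 4.59% in hypoxia-low cells. Nfe2l2, the gene of Nrf2 itself, had -0.82 (adjusted p = 0.205), and the cystine transporter gene Slc7a11, with 15 and 25 UMIs, was not tested.

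Genes known from late tumor neutrophils did not pass in matched cells, with 0 of 12 called and a median of 0.26. With every cell 6 of 16 rose and Trem1 fell, while 6.09% of all genes tested there were higher and 15.2% lower. Cd274, the ligand of the inhibitory receptor PD-1, stood at 1146, 2038 and 1235 CPM against 386, 240 and 808 CPM. Its classes did not overlap, as for 35.2% of all tested genes (1.5 ± 0.51, adjusted p = 0.069). With every cell it rose by 1.03 (adjusted p = 0.0189). The receptor gene Tnfrsf23 was under the filter in matched cells (22 and 10 UMIs) and rose with every cell (1.43, adjusted p = 0.0337). Ctsb and Cstb, a lysosomal protease and an inhibitor of such proteases, and the lectin gene Lgals3 rose with every cell by 0.95, 0.86 and 0.94.

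No member passed among the tested genes of lipid droplets (0 of 3), the unfolded protein response (0 of 5), polyamines (0 of 3), heat shock (0 of 1), interferon-stimulated genes (0 of 1) or ribosomal proteins (0 of 5). The summed ribosomal list still took 1.19%, 1.55% and 1.81% of UMIs in the hypoxia-high cells of mice 1, 2 and 3. In hypoxia-low cells it took 0.829%, 0.941% and 1.14%, without overlap. Its tested median was 0.94 in matched cells and -0.14 with every cell. The other summed lists named here overlapped between the classes. In the survival and death list Bnip3 was the 1 called of 8. Over all 321 tested genes 3.12% were higher and 9.35% lower. No gene of the mitochondrially encoded or the nuclear respiratory chain list passed the filter in matched cells. Arg1 gave 1 UMI in hypoxia-high and 0 in hypoxia-low sums. The plot of the gene lists sets these groups side by side.

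**Figure D4:**
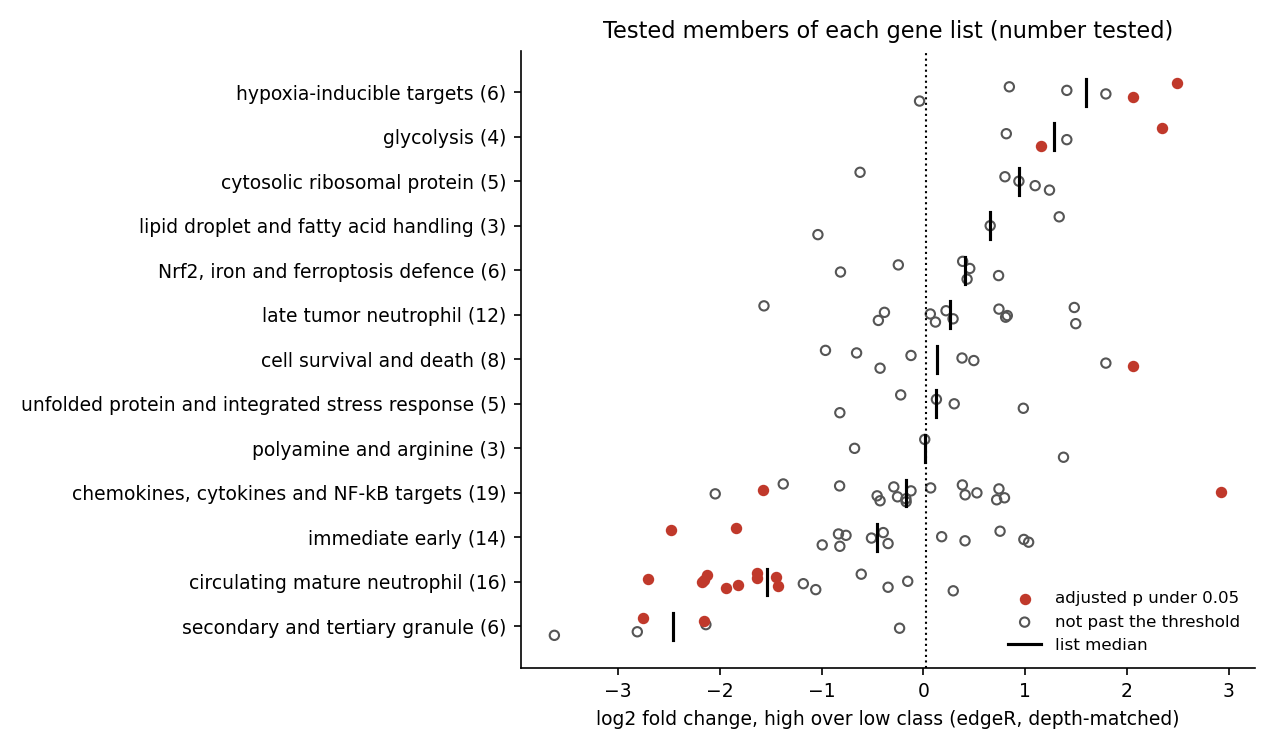
Log2 fold change of the tested members of each gene list with at least 3 of them, hypoxia-high over hypoxia-low. Each point is a gene, filled where the adjusted p was under 0.05, the short bars are list medians, the dotted line is the median of all 321 genes, and the number tested follows each name. Hypoxia-inducible targets and glycolysis lie farthest to the right (medians 1.60 and 1.28), and circulating neutrophil and granule genes farthest to the left (-1.54 and -2.46). In each of these lists some tested members passed the low-count filter through 1 class only, so the medians do not stand for the whole lists.

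The same genes were read in tumor barcodes that took no part in the fit. In hypoxia-high and hypoxia-low barcodes with no hashtag call, the 10 higher genes were all higher, and 29 of the 30 lower genes were lower, all but Nfkbid. Over all 321 genes 59.5% were higher and 40.5% lower there. In barcodes with several hashtags, which may hold more than 1 cell, 8 of 10 (not Cxcl3 and Rbm25) and 28 of 30 (not Il1b and Zfp36) kept their direction. These barcodes come from the same library and share its free RNA. In the middle class 28 of the 30 lower genes lay between the other classes, all but Nfkbid and S100a6.

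Several measures moved with the hypoxia-high class. The level of blood-type neutrophil transcripts, the share of cells with markers of other types and, in mouse 1, the Retnlg level of the hypoxia-low cells all differed between the classes, with the values given above, and for many of the lower genes the hypoxia-high level was near that of free RNA. Without cells holding other-type markers edgeR called 12 genes higher and 34 lower. Without cells holding a Retnlg UMI it called 0 and 5, with fewer cells in both classes, and without mouse 1 it called 0 and 0. The part of free RNA in the results was not tested. Because the rule is a share, a cell with fewer UMIs of other abundant genes meets it with fewer selecting UMIs. The limits of the design are 3 mice, 1 tumor library and the hashtag calls that tie cells to mice.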

How the data were processed

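The deposited tables hold UMI counts per gene and barcode, and hashtag counts per barcode, as the authors left them after alignment with STAR to mm10, per the submitters' processing notes; for the gene counter, nothing was given in the sources used here. Each file lists 10000 barcodes. Cells had at least 200 genes and at most 15% mitochondrial UMIs. Mice came from HTODemux (Seurat 5.3.0, k-means with 4 centres, quantile 0.99); barcodes with several hashtags or none were left out of the fit, and no doublet caller was run. Each hypoxia-high cell was matched to 1 hypoxia-low cell of its mouse within 20% in UMI total without the 4 selecting genes. UMIs were summed per mouse and class and tested with edgeR 4.0.16 (R 4.3.3; filterByExpr, TMM, quasi-likelihood, mouse as a block) at an adjusted p under 0.05; DESeq2 1.42.0, other filters and each mouse left out were alternatives. The script was tested on simulated data. Errors of fold changes are the log2 fold change over the root of the F statistic. Levels are CPM without the 4 genes, and free RNA was read from 5945 tumor barcodes with 20 to 60 UMIs. The pairing comes from the design, as both classes of a mouse are the same animal and library. The mouse is the replicate, and 3 mice limit every test.

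Named genes are the up to 12 largest called changes each way that were shared by 3 mice, the selecting genes, a fixed list of genes of interest, and up to 4 called members of each of 18 gene lists; 11 marker lists were read. The members and lists were chosen with earlier results of these data known.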

Additional observations from a re-analysis of the deposited data

Results flagged for a closer look

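Barcodes that entered no comparison between classes held hypoxia-high cells too, while the blood library held none. The rule was met by 11.7% of the tumor cells with no hashtag call (27 of 231, exact binomial 95% interval 7.85% to 16.5%) and by 9.76% of those with several hashtags (12 of 123, 5.14% to 16.4%). Among tumor barcodes with at least 100 but under 200 genes, below the limit of the rule, 13.5% reached the same share (99 of 732, 11.1% to 16.2%), against 0 of 455 blood barcodes of that depth, which allows up to 0.659%. Groups of 3 mice are too small to look for a single outlying value.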

How the results depend on the processing

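Every called gene that could be tested kept its direction in each of the 15 alternatives, but the number of calls varied. All 40 called genes moved the same way in all 3 mice, so other fits of the same mouse sums could hardly reverse one. Genes higher and lower numbered 10 and 30 as reported. They were 1 and 13 with DESeq2 (51 at an unadjusted p under 0.05), 19 and 26 with upper-quartile scaling, 6 and 30 with no low-count filter, 45 and 112 with all cells unmatched, 29 and 48 with each cell thinned to 467 UMIs, 2 and 15 with at least 300 genes, 8 and 14 with limits of 1.5% and 0.25% (81 tested), and 0 and 5 without cells holding a Retnlg UMI, an alternative chosen after seeing the data. Leaving out each mouse in turn gave 0 to 24 higher and 0 to 33 lower, with none left without replicate 1 (mouse 1). Without the replicate block for the mouse the counts were 9 and 24, and the 34 called genes tested in that fit kept their direction. With the 70% hashtag rule the counts were 13 and 28 of 235 genes tested. The hypoxia target median ranged from 0.90 to 2.79 with a mouse left out. Stricter limits of 1.5% and 0.25% left no target to test.

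Read in cells chosen by the other 3 genes, Hilpda ranged from 0.97 to 1.25 and Ero1l from 1.58 to 2.19 with a mouse left out. Ero1l gave 1.83 (adjusted p = 0.0725) with DESeq2. Plin2 passed without the replicate block (1.41), unmatched (1.1) and with the 70% hashtag rule (1.38). Vegfa was 0.13 unmatched and had no value in the filtered matched fits. Genes that did not pass in the reported fit changed sign: Cebpb with the stricter limits (0.068) and from -0.56 to 0.027 with a mouse left out, Ccl4 with 300 genes (0.59) and from -0.61 to 0.21, Acod1 with the 70% hashtag rule (0.30) and from -0.55 to 0.12, and Cxcl2 unmatched (-0.0057). The cause of these changes was not tested. At a median of 559 UMIs per cell, Vegfa gave only 18 and 17 UMIs in the matched high and low cells. With every cell edgeR gave it 0.13 ± 0.43 (SE, adjusted p = 0.854). Whether the shallow depth hid a difference in Vegfa was not tested.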
